A study of Mus musculus with 6 samples.

Results

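The genes described here are 9 receptors that hold blood cells in bone marrow or guide them to it, chosen by name: the integrin subunits Itga4, Itga6, Itgal, Itgam, Itgb1 and Itgb2, the chemokine receptor Cxcr4, the hyaluronan receptor Cd44 and the selectin ligand Selplg. They are 9 of the 53458 genes summed from the deposited transcript tables, and all 9 passed the filter on low counts among the 20654 genes tested. Expression was measured by RNA sequencing in blasts from the bone marrow of transplanted leukemic mice of the C57/BL6 strain. The tested genotype was Cebpa-/p30; Asxl1G643W/G643W, called G643W below (3 libraries), and it was set against Cebpa-/p30; Asxl1WT, called WT below (3 libraries). Both groups thus lacked full-length C/EBPα, a transcription factor of myeloid maturation, and carried its short p30 form, and they differed in the labels by the Asxl1 alleles, which encode a chromatin regulator. The labels number the libraries within a genotype and do not say whether they trace to separate primary leukemias, so each p-value is set against library-to-library spread, which may be technical in part.

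Integrins are pairs of an α and a β subunit that bind matrix or other cells. Itga4 with Itgb1 forms VLA-4, which binds VCAM-1 on marrow stroma and fibronectin, and Itga6 with Itgb1 binds laminin. Itgal and Itgam each pair with Itgb2 to form LFA-1 and Mac-1, leukocyte integrins that bind ICAMs and, for Mac-1, complement fragments, and Mac-1 increases as granulocytes and monocytes mature. Cxcr4 is the receptor for CXCL12, the chemokine that retains blood stem cells and leukemic blasts in marrow. Selplg encodes PSGL-1, the ligand on leukocytes for P-selectin, and Cd44 carries selectin ligands on the same cells and binds hyaluronan.

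The promoters of 3 members are shown because these genes stand for the 3 patterns of level described below: Itgam was high in some libraries of both genotypes, Itgb1 was low in those libraries, and Cxcr4 varied little. Each line is the 250 bases before the RefSeq start of the gene (RefSeq table of build GRCm38.p6), read 5′ to 3′ on the strand of the gene. The Itgam window is chr7:128062390-128062639 on the plus strand, the Itgb1 window chr8:128685404-128685653 on the plus strand, and the Cxcr4 window chr1:128592300-128592549 on the minus strand. Capitals mark GAGGAA, a core motif of the myeloid factor PU.1, and GGGCGG, the GC box, on either strand.
Itgam: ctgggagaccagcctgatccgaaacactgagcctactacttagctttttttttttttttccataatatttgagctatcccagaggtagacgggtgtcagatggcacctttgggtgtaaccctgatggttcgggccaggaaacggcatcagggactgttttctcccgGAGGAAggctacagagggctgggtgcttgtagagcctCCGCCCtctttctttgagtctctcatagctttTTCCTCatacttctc
Itgb1: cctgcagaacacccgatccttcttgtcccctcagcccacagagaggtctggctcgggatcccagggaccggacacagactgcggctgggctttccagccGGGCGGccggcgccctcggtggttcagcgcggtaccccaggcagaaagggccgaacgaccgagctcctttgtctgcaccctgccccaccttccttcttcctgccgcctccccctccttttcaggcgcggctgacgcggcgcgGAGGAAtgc
Cxcr4: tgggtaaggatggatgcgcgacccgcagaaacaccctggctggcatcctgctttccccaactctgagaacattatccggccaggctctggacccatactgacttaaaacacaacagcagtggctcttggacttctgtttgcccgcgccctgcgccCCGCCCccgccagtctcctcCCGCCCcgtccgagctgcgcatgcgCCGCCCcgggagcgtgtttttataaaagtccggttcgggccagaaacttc
The Itgam window held GAGGAA at 2 places and 1 GC box, the Itgb1 window held 1 of each, and the Cxcr4 window held 3 GC boxes and no GAGGAA. Of the 32851 promoter windows of the same length in the table, 23.3% held GAGGAA and 32.7% held GGGCGG, so both motifs are common. TGTGGT, the core letters of the RUNX motif, was in the Itga4 window and in 14% of all windows. TTGCNNAA, a C/EBP half-site pair in which N is any base, was in none of the 5 member windows found in the table and in 9.56% of all windows. The table matched 5 of the 9 members, the other 2 being Itga4 and Cd44, and Itga6, Itgal, Itgb2 and Selplg are named only. A match of letters is a description of the sequence and says nothing of binding in these cells.

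Depth was 61167075 to 101189225 estimated reads in the G643W libraries and 69885969 to 76060388 in the WT libraries. Per the labels, blasts were sorted as positive for CD45.2, low for Mac1 and Gr1 and negative for Ter119, B220 and CD3. Spi1, the gene of PU.1, was at 222 to 352 TPM in G643W libraries and 216 to 302 TPM in WT libraries (TPM is reads per transcript length, scaled to the same sum in every library), and Mpo, the myeloperoxidase of immature myeloid cells, at 172.5 to 2181 TPM in G643W and 244 to 1609 TPM in WT libraries. Spi1 and Mpo are from a list of 7 myeloid blast markers, of which none passed the test. Of the same list, Kit was at 4.44 to 35.9 TPM in G643W and 2.12 to 17.95 TPM in WT libraries. Cebpa was at 5.935 to 59 TPM in G643W and 26.9 to 64.5 TPM in WT libraries. Cd33 was at 10.9 to 162.5 TPM in G643W and 24.4 to 54.3 TPM in WT libraries. The T cell genes Cd3e and Cd3d were at most 0.219 and 3.09 TPM. A list of 15 neutrophil markers stood apart between libraries within each genotype: its summed level was 38720, 218500 and 139700 TPM in G643W libraries 1, 2 and 3 and 44480, 41180 and 91930 TPM in WT libraries 1, 2 and 3. Without its highest gene, Chil3, the sum was 16370, 185900 and 114700 TPM in G643W and 2747, 13590 and 79240 TPM in WT libraries. None of the 15 was at 0 in all libraries, 14 had a positive log2 fold change for G643W over WT, and none passed the test. The lists of monocyte and of dendritic cell markers went the other way, with 11 of 13 and 7 of 8 negative and 2 dendritic cell genes past the test on the lower side, as 0.0678% of all genes were. The highest gene of the neutrophil list was Chil3, at 22350 to 32630 TPM in G643W and 12690 to 41740 TPM in WT libraries, that of the monocyte list Ly6c2, at 2577 to 3253 TPM in G643W and 1569 to 3727 TPM in WT libraries, and that of the dendritic cell list H2-Ab1, at 11.6 to 18.3 TPM in G643W and 69.2 to 141 TPM in WT libraries. Over all libraries, the highest genes of the other lists were Cpa3 of mast cells and basophils (at most 218.5 TPM), Hbb-bs of red cells (at most 29.2 TPM), Cd79b of B cells (at most 16.2 TPM), Cd4 of T cells (at most 8.67 TPM), Gp9 of platelets (at most 4.27 TPM) and Pdgfrb of stroma (at most 2.60 TPM). Of these, Cpa3 was at 29.9, 0.746 and 1.36 TPM in G643W and 187, 218.5 and 2.33 TPM in WT libraries 1 to 3.

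Itgb2 was the highest of the 9 genes in both genotypes by mean TPM and Itga6 the lowest. The order in G643W libraries was Itgb2, Itgam, Cxcr4, Selplg, Cd44, Itgal, Itgb1, Itga4 and Itga6, and the only neighbours whose ranges did not overlap were Selplg and Cd44. The order in WT libraries was Itgb2, Cxcr4, Selplg, Itgam, Itgb1, Cd44, Itga4, Itgal and Itga6, and every pair of neighbours overlapped. Itgb1 thus stood above Cd44 and Itgal by mean in WT libraries and below both in G643W libraries.

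**Figure D1:**
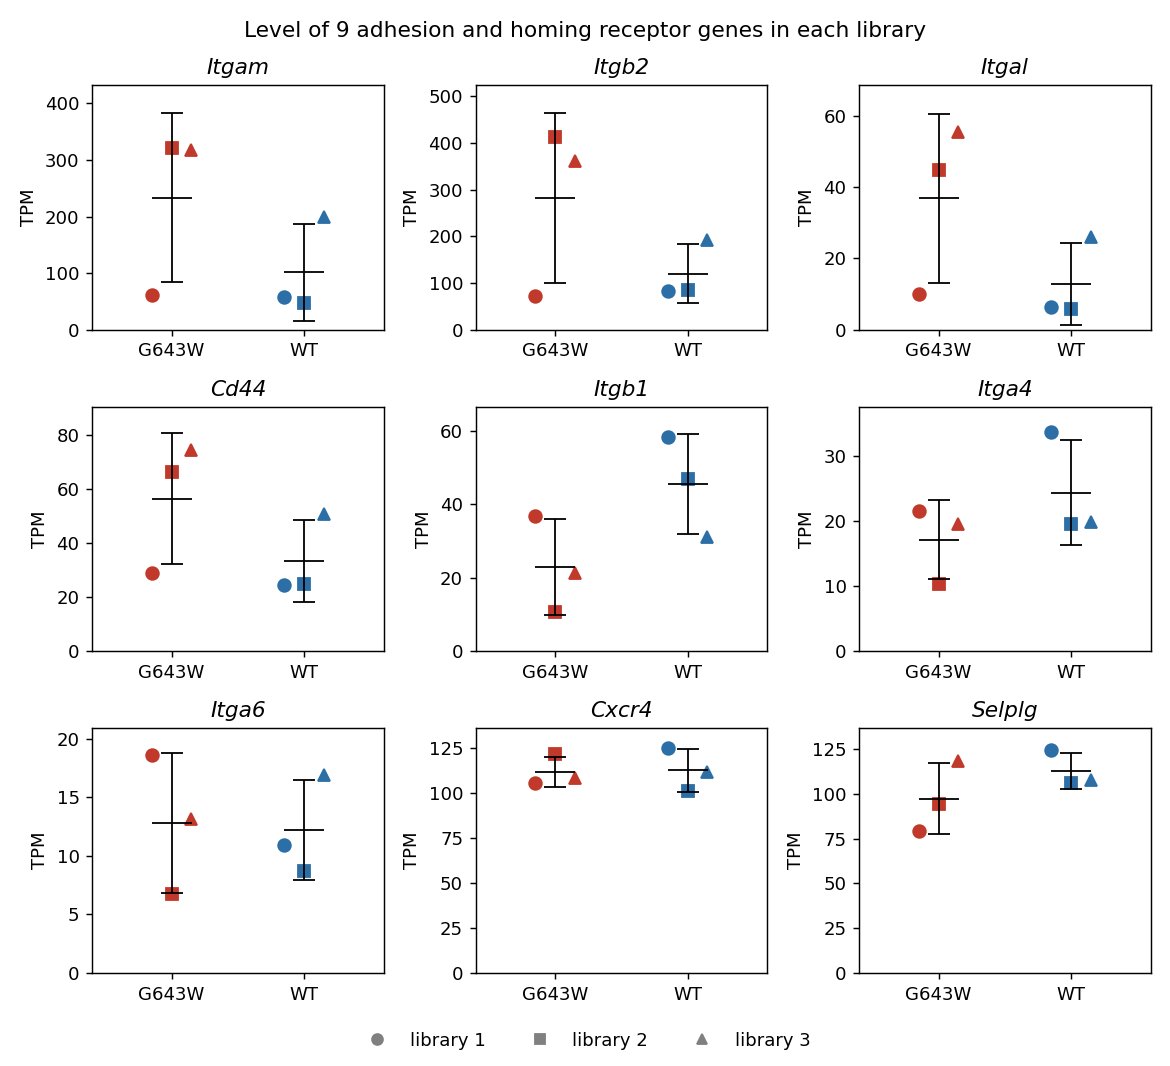
TPM of each of the 9 genes (vertical axis, linear, from 0) in G643W libraries (left, red) and WT libraries (right, blue), 1 point a library, with the mean and SD of 3 as bars. In Itgam, Itgb2, Itgal and Cd44 the G643W libraries 2 and 3 and the WT library 3 are high, and all 9 genes overlap between the genotypes.

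The genes of the β2 integrins were high in the same libraries of both genotypes. Itgam, the α chain of Mac-1 (ENSMUSG00000030786; plus strand of GRCm38 chromosome 7, 128062640 to 128118491), had 61.8, 321 and 318 TPM in G643W libraries 1 to 3 and 57.6, 46.8 and 199 TPM in WT libraries 1 to 3. Itgb2 (ENSMUSG00000000290; plus strand of chromosome 10, 77530252 to 77565708), the β chain that LFA-1 and Mac-1 share, was at 72.95, 412.5 and 360.8 TPM in G643W and at 82.5, 86.0 and 193 TPM in WT libraries. Itgal (ENSMUSG00000030830; plus strand of chromosome 7, 127296260 to 127335138), the α chain of LFA-1, was at 10.2, 44.95 and 55.5 TPM in G643W and at 6.36, 5.86 and 26.0 TPM in WT libraries. In each of the 3 genes the G643W libraries 2 and 3 were the highest of the 6, the WT library 3 came next, and the G643W library 1 lay near the WT libraries 1 and 2, so the genotypes overlapped.

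The means of Itgam were 233 ± 149 TPM in G643W and 101 ± 85.1 TPM in WT libraries (SD, n = 3 each), with a log2 fold change of 1.07 ± 0.78 (SE, edgeR quasi-likelihood test, adjusted p = 0.619). Per the labels, Mac1 protein was used in the sort, and cells low for Mac1 were taken in both genotypes. Ly6g, of the neutrophil list, was at 10.8, 697 and 245 TPM in G643W and 6.14, 26.8 and 294 TPM in WT libraries. How far the sort held in each library was not tested. Itgb2 averaged 282 ± 183 TPM in G643W and 120.5 ± 62.7 TPM in WT libraries, a log2 fold change of 1.09 ± 0.66 (edgeR adjusted p = 0.572). For Itgal the means were 36.9 ± 23.7 TPM in G643W and 12.75 ± 11.50 TPM in WT libraries, and its log2 fold change of 1.53 ± 0.77 was the largest of the 9 in size (edgeR adjusted p = 0.539). None of the 3 passed the threshold of 0.05, and the neutrophil markers were high in the same 3 libraries. In bulk RNA, fewer cells of a type and less RNA per cell cannot be told apart.

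Part of the level of Itgam and Itgb2 in TPM rested on transcripts under 500 bases, where few reads give a high TPM. Such transcripts held 42.6, 33.1 and 34.1% of Itgam TPM in G643W libraries and 21.4, 27.7 and 32.5% in WT libraries, but only 0.57 to 1.56% of its reads over all libraries. For Itgb2 they held 18.3 to 27.3% of TPM and 1.05 to 1.8% of reads. Another gene model, Gm49368, overlaps the Itgam locus on the same strand, and the Itgam transcript with the most reads shares 3450 bases with it. Whether these are the same exons was not examined. Gm49368 was at 0.831, 6.11 and 5.31 TPM in G643W and 0.694, 1.55 and 3.83 TPM in WT libraries. Summed with it, Itgam was at 62.6, 326.9 and 323 TPM in G643W and 58.3, 48.3 and 203.1 TPM in WT libraries, which leaves the order of libraries as it was. No other member shared over 50% of its length with another gene at 95% identity.

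Cd44 (ENSMUSG00000005087; minus strand of chromosome 2, 102811141 to 102901665) followed the β2 integrins with a smaller spread. It was at 28.8, 66.1 and 74.2 TPM in G643W and at 24.6, 24.8 and 50.7 TPM in WT libraries. The means were 56.4 ± 24.2 TPM in G643W and 33.3 ± 15.01 TPM in WT libraries, a log2 fold change of 0.66 ± 0.45 (edgeR adjusted p = 0.597), and the genotypes overlapped.

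Of the chains of VLA-4, Itgb1 had its lowest values in the 3 libraries where the β2 integrins were high, and Itga4 its lowest in 1 of them. Itgb1 (ENSMUSG00000025809; plus strand of chromosome 8, 128685654 to 128733200) had 36.7, 10.6 and 21.45 TPM in G643W and at 58.4, 46.96 and 31.2 TPM in WT libraries. The G643W library 1 stood above the WT library 3, which is the single overlap between the genotypes. The means were 22.9 ± 13.1 TPM in G643W and 45.5 ± 13.7 TPM in WT libraries, and the log2 fold change of -1.06 ± 0.38 had a 95% interval of -1.95 to -0.17 and the lowest p of the 9 (edgeR adjusted p = 0.493). The summed level of the dendritic cell markers was lower in G643W libraries, as Itgb1 was by mean. This sum was lower in all 3 G643W libraries (21.9 to 26.95 TPM in G643W and 136.9 to 268.5 TPM in WT libraries), without the overlap that Itgb1 had. Without H2-Ab1 it was 8.51 to 13.6 TPM in G643W and 67.7 to 133 TPM in WT libraries. Most of that rest was H2-Eb1, the other gene of the list past the test. H2-Eb1 was at 7.33 to 11.0 TPM in G643W and 59.0 to 107 TPM in WT libraries. Not every marker of the list followed: Xcr1, Clec9a and Zbtb46 overlapped, with log2 fold changes of 0.20, -0.74 and -0.13. The mean of the monocyte and macrophage markers, relative to the 6 libraries on the log2 CPM scale, was -0.20, -1.59 and 0.18 in G643W and 1.18, 0.49 and -0.06 in WT libraries, with the same lowest and highest library as Itgb1. The part of either list in its difference was not tested.

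Itga4 (ENSMUSG00000027009; plus strand of chromosome 2, 79255426 to 79333123) had 21.6, 10.3 and 19.6 TPM in G643W and at 33.6, 19.6 and 19.9 TPM in WT libraries. The lowest value was that of the G643W library 2 and the highest that of the WT library 1, while the other 4 libraries lay within 19.6 to 21.6 TPM. The log2 fold change was -0.58 ± 0.32 (edgeR adjusted p = 0.561). Cerkl, on the opposite strand, overlaps the locus at 4.53 to 11.0 TPM in G643W and 7.20 to 19.1 TPM in WT libraries, and the sources used here do not say whether the counting used strand. Cerkl had 245.1 to 313.8 estimated reads in G643W libraries, against 16247 to 23276 for Itga4.

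Itga6, the α chain of a laminin receptor, did not go with Itgb1. Itga6 (ENSMUSG00000027111; plus strand of chromosome 2, 71745616 to 71858416) had 18.6, 6.71 and 13.1 TPM in G643W and at 10.9, 8.70 and 16.9 TPM in WT libraries. The G643W values enclosed all WT values. The log2 fold change was 0.01 ± 0.38 with a 95% interval of -0.90 to 0.91 (edgeR adjusted p = 0.994), so changes of nearly 2-fold in either direction lay within the interval.

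Relative to their means, Cxcr4 and Selplg had the smallest spread of the 9 in TPM within each genotype. Cxcr4 (ENSMUSG00000045382; minus strand of chromosome 1, 128588199 to 128592293) was at 106, 122 and 108 TPM in G643W and at 125, 101.5 and 112 TPM in WT libraries, with means of 111.9 ± 8.49 TPM in G643W and 112.7 ± 11.7 TPM in WT libraries. Its fold change of 0.908 had a 95% interval of 0.641 to 1.29 (edgeR adjusted p = 0.806). Selplg (ENSMUSG00000048163; minus strand of chromosome 5, 113818536 to 113832644) was at 79.1, 94.2 and 118.5 TPM in G643W and at 124, 106 and 107.5 TPM in WT libraries, and its fold change of 0.858 had an interval of 0.584 to 1.26 (edgeR adjusted p = 0.719). For both genes a change of 2-fold in either direction lay outside the interval. Transcripts under 500 bases held 18.5 to 30.7% of Selplg TPM and 2.25 to 4.51% of its reads.

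Across the 9 genes, 0 passed an adjusted p of 0.05 in edgeR, where 0.121% of all genes tested did (0.0533% higher and 0.0678% lower). In DESeq2 0 of 9 passed, where 2.07% of all genes did, and in limma 0 of 9 passed, where 0.0968% of all genes did on log2(TPM + 1) and 0.208% on log2(TPM + 0.1). At an unadjusted edgeR p under 0.05, 1 of 9 passed (Itgb1), where 9.66% of all genes did, and in DESeq2 2 of 9 (Itgal and Itgb1), where 12.5% of all genes did. For 0 of 9 the libraries of the genotypes did not overlap in CPM, against 15.9% of all genes. The members had 5 positive and 4 negative log2 fold changes with a median of 0.01, and all genes tested had a median of -0.01.

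Which libraries entered the fit moved these values. Without the G643W library 1, an unadjusted p under 0.05 was reached by 5 of 9 members (Itgal, Itgam, Itgb1, Itgb2 and Cd44), where the share of all genes was 20.9%, and the adjusted p of these 5 ran from 0.138 to 0.203. Without the WT library 3 it was reached by 2 of 9 (Itgal and Itgb1), where the share of all genes was 14.4%. Without the G643W library 1 the log2 fold change of Itgam was 1.62 ± 0.59 and that of Itgb2 1.64 ± 0.41, and without the G643W library 2 they were 0.64 ± 0.85 and 0.61 ± 0.68. Without the WT library 3 the log2 fold change was 1.98 ± 0.84 for Itgam, 1.603 ± 0.78 for Itgb2, 1.11 ± 0.50 for Cd44 and 2.61 ± 0.76 for Itgal (edgeR adjusted p = 0.358, 0.405, 0.377 and 0.269 in that order). That of Itgb1 stayed negative with any 1 library left out, at -1.34 to -0.80.

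With the mean of the 15 neutrophil markers as a covariate, the log2 fold changes of the genes that went with these markers lay nearer 0. Itgam was then at -0.21 with a 95% interval of -1.33 to 0.91, Itgb2 at -0.10 with an interval of -1.08 to 0.89, and Cd44 at 0.01 with an interval of -0.57 to 0.59. Itgal was at 0.46 with an interval of -0.43 to 1.35. Itgb1 was at -0.64 with an interval of -1.18 to -0.10 (edgeR adjusted p = 0.77). The covariate is itself measured in these libraries and is higher by mean in G643W, so the fit does not separate the marker level from genotype, and a cause was not tested.

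**Figure D2:**
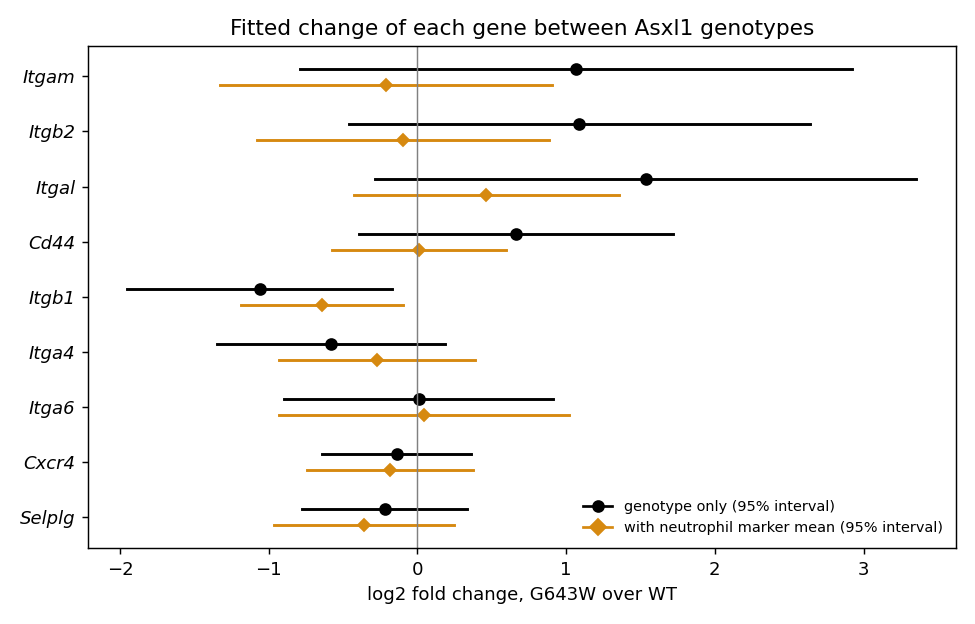
Log2 fold change of each gene, G643W over WT (horizontal axis), with its 95% interval, from the model with genotype only (black circles) and with the mean of 15 neutrophil markers added (orange diamonds). With genotype only, the interval of Itgb1 (-1.95 to -0.17) alone leaves out 0, and with the marker mean added Itgam and Itgb2 lie at -0.21 and -0.10.

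Itgam, Itgb2, Itgal and Cd44 lay above their mean in the same 3 libraries as the neutrophil markers and below it in the other 3, while the order within these sets differed. Relative to the mean of the 6 libraries on the log2 CPM scale (CPM is a scaled share of the reads of a library), the marker mean was at -1.51, 2.56 and 1.67 in G643W libraries 1 to 3 and at -2.72, -1.11 and 1.10 in WT libraries 1 to 3. Across the 6 libraries the log2 CPM of Itgam correlated with that of Itgb2 (Pearson r = 0.977), Itgal (r = 0.956) and Cd44 (r = 0.984), and that of Itgb1 with Itga4 (r = 0.911) and inversely with Itgal (r = -0.912). Cxcr4 and Itgam had r = 0.131. These correlations describe 6 libraries of 2 genotypes, share library depth and scaling, and carry no test.

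**Figure D3:**
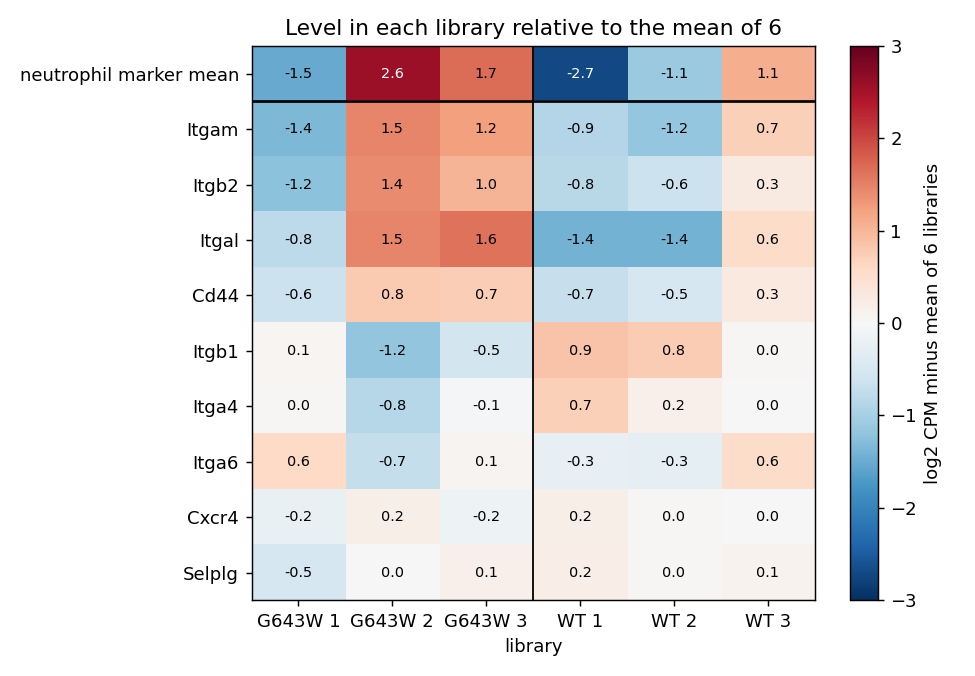
Log2 CPM of the neutrophil marker mean and of each gene (rows), minus the mean of the 6 libraries, in each library (columns, G643W left of WT); red is above and blue below the mean. Itgam, Itgb2, Itgal and Cd44 have the signs of the marker mean in every library, and Cxcr4 and Selplg stay nearer 0.

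Ratios between subunit genes, chosen after the values had been seen and given with no test, compare genes within a library. The ratio of Itgb2 to Itgb1 in TPM was 1.99, 39.0 and 16.8 in G643W and 1.41, 1.83 and 6.19 in WT libraries. The ratio of Itga4 to Itgb1 was 0.588, 0.971 and 0.913 in G643W and 0.575, 0.417 and 0.638 in WT libraries. Both sets overlapped between the genotypes. The ratio of Itgam to Itgal was 6.08, 7.14 and 5.72 in G643W and 9.06, 7.99 and 7.655 in WT libraries, the single one of 8 ratios without an overlap. By estimated reads it was 3.25, 4.81 and 3.65 in G643W and 6.99, 5.75 and 5.34 in WT libraries, so the α chains of Mac-1 and LFA-1 stood in a lower ratio in all 3 G643W libraries on either scale. The sum of the 4 α chains that pair with Itgb2 (Itgam, Itgal, Itgax and Itgad) over Itgb2 was 1.04, 0.897 and 1.05 in G643W and 0.812, 0.664 and 1.20 in WT libraries, which overlapped.

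**Figure D4:**
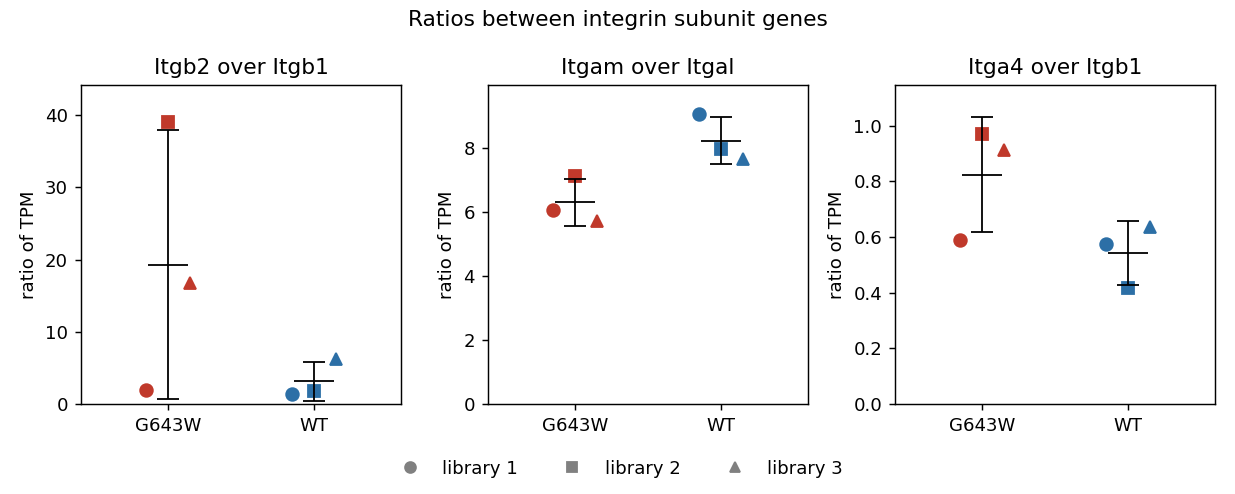
Ratio of TPM of 3 pairs of integrin subunit genes (vertical axes, linear, from 0) in G643W libraries (left, red) and WT libraries (right, blue), 1 point a library, with the mean and SD of 3. Itgam over Itgal lies at 5.72 to 7.14 in G643W and 7.655 to 9.06 in WT libraries, and the other 2 ratios overlap.

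The members also differed in which of their transcripts held the level. Of 38 member transcripts with at least 200 estimated reads over the 6 libraries, the share of the gene's TPM did not overlap between the genotypes for 13, or 34.2%, against 16.4% of 40565 transcripts of all genes. Shares of 1 gene are tied to each other, since a higher share of one transcript lowers another, and no test was made. Salmon splits reads among overlapping transcripts by a model, so these shares are estimates. The transcripts below were picked after their values had been seen.

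One such gene was Cxcr4, whose summed level had a fold change of 0.908. Cxcr4-202 (902 bases, 818 of them annotated as coding) held 29.0, 29.6 and 28.7% of Cxcr4 TPM in G643W and 21.0, 18.9 and 24.0% in WT libraries. By reads the share was 16.5, 16.8 and 16.2% in G643W and 11.6, 10.2 and 13.2% in WT libraries. Cxcr4-201 (1805 bases, 1077 of them coding) held the rest, at 75.1, 85.6 and 77.3 TPM in G643W and 98.6, 82.35 and 84.8 TPM in WT libraries, which overlapped.

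Among the integrins, Itgal-203 (2295 coding bases, against 3486 in Itgal-201) held 21.5, 19.2 and 15.1% of Itgal TPM in G643W and 38.4, 35.6 and 21.9% in WT libraries. Itgb2-201, which has the longest coding part of that gene (2310 bases), held 61.5, 61.7 and 60.1% of Itgb2 TPM in G643W and 71.7, 69.7 and 65.3% in WT libraries. Itgam-202, whose coding part has 28 exons against 30 in Itgam-203, was at 2.04, 4.75 and 23.3 TPM in G643W and at 0.205, 0.350 and 0.276 TPM in WT libraries, from 894.4, 3141 and 11458.2 estimated reads in G643W and 107.5, 188.1 and 144.7 in WT libraries. All 3 G643W libraries stood above all WT libraries for it, also the G643W library 1, in which Itgam as a whole was low. Itga6-203, annotated as a processed transcript without a coding part, had 10.6, 3.71 and 6.90 TPM in G643W and 6.61, 5.58 and 10 TPM in WT libraries, above the coding Itga6-201 in TPM in every library. By estimated reads Itga6-201 was the higher in every library but the WT library 1 (2021.6 against 2097.8).

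**Figure D5:**
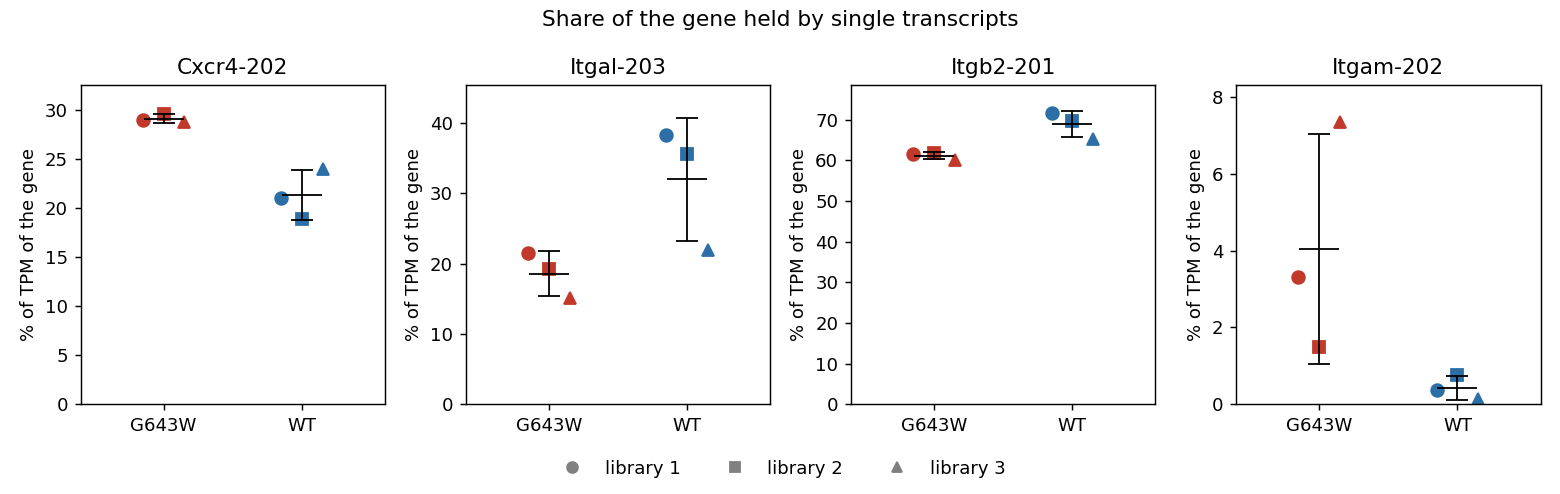
Share of its gene's TPM held by each of 4 transcripts (vertical axes in percent, linear, from 0) in G643W libraries (left, red) and WT libraries (right, blue), 1 point a library, with the mean and SD of 3. Cxcr4-202 and Itgam-202 lie higher in all 3 G643W libraries, and Itgal-203 and Itgb2-201 lower. The 4 were picked after their values had been seen.

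For Cd44, the annotated forms without (Cd44-203) and with (Cd44-207) variable exons were both highest in the G643W libraries 2 and 3 and the WT library 3. Cd44-203, the short form with 9 coding exons, was at 12.8, 30.2 and 37.95 TPM in G643W and at 8.895, 9.0 and 23.5 TPM in WT libraries. Cd44-207, with 14 coding exons, was at 14.9, 34.2 and 33.9 TPM in G643W and at 15.2, 15.4 and 26.0 TPM in WT libraries. In the G643W library 1, Cd44-203 was thus above the WT libraries 1 and 2, and Cd44-207 below them. Cd44-201, with 19 coding exons, was at most 1.25 TPM in any library. The annotated forms also differ outside their coding parts, so reads there add to the split.

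The other genes of these pathways were taken from 7 lists of 114 genes, of which 103 were tested. In edgeR 0 of the 103 passed in either direction, 5 were higher at an unadjusted p under 0.05, where 3.89% of all genes were, and 6 lower, where 5.78% were. DESeq2 called 2 lower (Itga1 and Itga2b), where it called 1.28% of all genes lower. The libraries did not overlap for 4 higher genes, against 7.05% of all genes, and 8 lower genes, against 8.89% of all genes. The median log2 fold change of the 103 was 0.14, with 62 positive and 41 negative. For the sign counts below, 10168 of the 20654 genes tested were positive and 10486 negative.

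Among the other integrin subunits, 5 of 16 log2 fold changes were positive and 11 negative. Itga1, the α chain of a collagen receptor that pairs with Itgb1, was at 1.49, 0.647 and 1.24 TPM in G643W and at 7.58, 3.56 and 2.19 TPM in WT libraries, without overlap, and its log2 fold change was -2.10 ± 0.48 (edgeR adjusted p = 0.379, DESeq2 adjusted p = 0.00761). Itga2b, the α chain of the platelet fibrinogen receptor that also marks early blood progenitors, was at 0.590, 0.352 and 0.218 TPM in G643W and at 8.76, 3.04 and 1.53 TPM in WT libraries, a log2 fold change of -3.21 ± 0.78 (edgeR adjusted p = 0.409, DESeq2 adjusted p = 0.0011). The platelet markers, 3 of 6 tested, had an overlapping summed level of 1.59 to 5.02 TPM in G643W and 1.29 to 2.36 TPM in WT libraries. Without Gp9, their highest gene, it was 0.426, 0.749 and 2.64 TPM in G643W and 1.19, 1.79 and 0.504 TPM in WT libraries. The part of these markers in the Itga2b values was not tested. Itgb7, the other β partner of Itga4, had the highest mean of the list, at 67.9, 78.4 and 103.5 TPM in G643W and 232.5, 110.3 and 92.6 TPM in WT libraries, and its libraries overlapped. Itgb7 was above Itgb1 in every library, at 1.85 to 7.41 times its TPM in G643W and 2.35 to 3.98 times in WT libraries.

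Of 19 tested genes that activate integrins or link them to actin, 16 had a positive log2 fold change and 3 a negative one, with none at an unadjusted p under 0.05 and a median of 0.28. Tln1, the talin that switches integrins on, had the highest mean and a log2 fold change of 0.02 ± 0.27 (edgeR adjusted p = 0.98). Ptk2b, a kinase of the focal adhesion kinase family, was at 13.8, 40.6 and 26.8 TPM in G643W and 14.7, 9.97 and 16.3 TPM in WT libraries (edgeR adjusted p = 0.516). Sharpin, which holds integrins inactive, was at 78.0 to 88.75 TPM in G643W and 45.6 to 77.4 TPM in WT libraries (edgeR adjusted p = 0.585), without overlap in TPM and with overlap in CPM.

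Of 13 tested ligands, 8 were positive and 5 negative. Fn1, fibronectin, which VLA-4 binds, was at 4.49, 0.467 and 2.75 TPM in G643W and 28.2, 28.7 and 3.82 TPM in WT libraries, where the WT library 3 lay within the G643W values (log2 fold change -2.66 ± 1.01, edgeR adjusted p = 0.498). Icam1, a ligand of LFA-1 and Mac-1, had a log2 fold change of -0.71 ± 0.28 (edgeR adjusted p = 0.503), with 4.42, 2.97 and 3.45 TPM in G643W and 7.77, 4.28 and 4.71 TPM in WT libraries, which overlapped in TPM and not in CPM. Icam2, another LFA-1 ligand and the highest of the list, was at 17.4 to 32.6 TPM in G643W and 21.3 to 41.7 TPM in WT libraries.

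Among 13 tested chemokine and egress receptors, 3 were higher and 1 lower at an unadjusted p under 0.05, against 3.89% higher and 5.78% lower of all genes. Ccr2, the receptor that lets monocytes leave marrow, was at 34.9, 13.9 and 49.99 TPM in G643W and 78.3, 90.3 and 56.9 TPM in WT libraries, without overlap (log2 fold change -1.33 ± 0.45, edgeR adjusted p = 0.493). The monocyte and macrophage list had a median log2 fold change of -1.13 and a summed level of 2723 to 3576 TPM in G643W and 2102 to 4062 TPM in WT libraries. Without its highest gene, Ly6c2, the sum was 322.8, 145.5 and 346.7 TPM in G643W and 783.3, 533.9 and 334.8 TPM in WT libraries. The part of this list in the Ccr2 values was not tested. Cxcr3 was at 0.195, 1.24 and 2.06 TPM in G643W and 0.239, 0.114 and 0.304 TPM in WT libraries (edgeR adjusted p = 0.494).

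All 20 genes of CXCR4 signalling were tested, with 14 positive and 6 negative. Plcb2, a phospholipase downstream of chemokine receptors, was at 31.25, 47.2 and 47.8 TPM in G643W and 12.8, 16.05 and 29.2 TPM in WT libraries, without overlap (log2 fold change 1.17 ± 0.39, edgeR adjusted p = 0.488). Rac2, the GTPase of blood cell migration and the highest of the list, was at 2492, 4638 and 3842 TPM in G643W and 1159, 1024 and 2653 TPM in WT libraries, with an overlap of 1 library (log2 fold change 1.20 ± 0.49, edgeR adjusted p = 0.511). Both were higher in the WT library 3 than in the other WT libraries, as the neutrophil markers were. The G643W library 1 did not follow these markers, whose mean was -1.51 there and -1.11 in the WT library 2. In it Plcb2 was above every WT library, and Rac2 was above the WT libraries 1 and 2. The part of these markers was not tested.

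Of 11 tested enzymes that build selectin ligands, 4 were positive and 7 negative. C1galt1c1, the chaperone of the enzyme that extends O-glycans, was at 15.7, 11.3 and 14.7 TPM in G643W and 17.4, 19.6 and 24.05 TPM in WT libraries, without overlap (log2 fold change -0.63 ± 0.21, edgeR adjusted p = 0.493). Fut7, a fucosyltransferase needed for selectin binding by PSGL-1, had a log2 fold change of -0.65 ± 0.28 (edgeR adjusted p = 0.511) and overlapped. Tpst2, which sulfates tyrosines of PSGL-1, was the highest of the list, at 60.2 to 70.1 TPM in G643W and 55.8 to 71.4 TPM in WT libraries.

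Of 11 linkers and proteases that act on adhesion receptors, 7 were positive and 4 negative. Dpp4, a peptidase that inactivates CXCL12, was at 0.135, 2.38 and 4.76 TPM in G643W and 7.135, 4.89 and 13.03 TPM in WT libraries, without overlap (log2 fold change -1.78 ± 0.79, edgeR adjusted p = 0.524). Adam10, a sheddase that cleaves CD44, was at 26.3, 26.2 and 36.1 TPM in G643W and 14.75, 19.9 and 23.6 TPM in WT libraries, also without overlap (log2 fold change 0.51 ± 0.26, edgeR adjusted p = 0.541). Elane, neutrophil elastase, was the highest of the list and spread from 144.5 to 1198 TPM in G643W and from 28.9 to 973 TPM in WT libraries.

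The genes whose log2 CPM was most like that of Itgb1, the member with the lowest p, were Snx25 (r = 0.997), Tespa1 (r = 0.996), Myef2 (r = 0.995), Mfge8 (r = 0.995) and Ly86 (r = 0.995), over 6 libraries and 14100 tested protein-coding genes. A high r with Itgb1 was common: 396 of the 14100 genes had r over 0.95 over the 6 libraries. Why so many did was not tested. Ly86, the highest of the 5, was at 74.9, 19.6 and 45.2 TPM in G643W and 172.5, 128 and 83.9 TPM in WT libraries, without overlap.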

How the data were processed

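RNA of sorted blasts was sequenced in 6 libraries, 3 of each Asxl1 genotype. Per the file headers, the authors deposited Salmon tables with an estimated count of reads and a TPM value for each transcript. The submitters' processing notes name bcl2fastq, Salmon 0.12.0 and the builds GRCm38.p6 and mm10. The sources used here give no transcript index, options or strand setting. Of 136288 transcripts, 136176 were matched to GENCODE M21 and summed over 53458 genes, and the other 112 (at most 0.0365% of a library's reads) were left out. Estimated counts were rounded, filtered (filterByExpr, minimum count 10, 20654 genes kept), TMM-scaled and tested in edgeR 4.0.16 (quasi-likelihood, genotype only, two-sided, R 4.3.3), with Benjamini-Hochberg adjustment over all tested genes and a threshold of 0.05. The SE of a log2 fold change is its size divided by the square root of F. Every pair of libraries differed beyond sampling noise. Copies were sought with BLAST+ 2.17.0. Alternatives used DESeq2 1.42.0, limma 3.58.1 on log2(TPM + 1) and log2(TPM + 0.1), other scaling and filters, length-scaled counts, a replicate block, single libraries left out, protein-coding genes alone and the neutrophil mean as a covariate. Removal of transcripts under 500 bases was added after the data were seen. The members and lists were chosen with earlier results of these data known. Named beside the members were, of each pathway list, the called genes, the 2 of lowest p and the highest by TPM, the 5 genes most like the member of lowest p, and the highest gene of each marker list, except 1 pathway gene that is not reported here. The procedure was tested on simulated data with changes of known size. It called 0% of 2-fold, 14% of 4-fold, 36% of 8-fold and 54% of 16-fold changes. A gene not called is thus not shown to be unchanged.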

Additional observations from a re-analysis of the deposited data

How the results depend on the processing

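None of the 9 genes passed the threshold under any alternative run. Across all genes the number called was 25, against 27 with RLE scaling, 20 with limma on log2(TPM + 1), 18 with the neutrophil mean as a covariate, 16 with no scaling factor, 16 without transcripts under 500 bases, 104 with no filter on low counts, 428 with DESeq2, 43 with limma on log2(TPM + 0.1), 5 with length-scaled counts, 2 among protein-coding genes alone and 0 to 16 with 1 library left out. Of the pathway genes, 0 were called, against 1 with no filter (Itga1, adjusted p = 0.0475) and 2 with DESeq2 (Itga1 and Itga2b). With the replicate block, 0 genes were called (1772 at an unadjusted p under 0.05), and the log2 fold change of Itga6 was -0.0375. The replicate numbers did not pair the libraries: same-numbered libraries had correlations of their deviations of 0.112, -0.165 and 0.176, and the G643W library 1 correlated best with the WT library 2 (0.21). The sign turned for Itga6 with no filter (-0.0012) and with 1 library left out (-0.26 to 0.38), for Itgam (-0.21) and Itgb2 (-0.10) with the neutrophil mean as a covariate, and with 1 library left out for Cxcr4 (-0.27 to 0.0252) and Selplg (-0.36 to 0.0287). The cause was not tested. No scaling moved the median of all genes by over 0.1. Precision is limited by 3 libraries a genotype and a biological coefficient of variation of 52.8%.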
